A study of Caenorhabditis elegans with 9 samples.

Results

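The genes examined here are the *col* genes of *C. elegans*, taken as every gene of the deposited table whose WormBase name is *col-* followed by a number. There were 159 such members among 46875 listed genes, of which 156 were annotated as protein-coding and 3 (*col-66*, *col-136* and *col-182*) as pseudogenes. RNA-seq had been performed on polyA RNA from whole worms at the late L2 larval stage that had been grown at 20 °C after synchronization by hypochlorite treatment of gravid adults. The *sma-3(wk30)* and *sma-9(ok1628)* mutants and wild-type N2 were each represented by 3 biological replicates, 9 libraries in all, and no worm carried a further mutation or treatment. SMA-3 is a Smad and SMA-9 a Schnurri-type zinc finger protein, and both act in the BMP pathway of the ligand DBL-1, which promotes body size. The comparisons ask which collagen transcripts change when each factor is lost.

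Cuticle collagens are short secreted collagens with interrupted Gly-X-Y repeats. The epidermis makes them, trims, hydroxylates and crosslinks them, and assembles them into a new cuticle at every moult. They form a very large gene family, many of whose members are transcribed in a pulse during each moulting cycle, and subsets are used at particular stages, as with the adult collagen *col-19*. The cuticle limits body size, so cuticle collagens have been studied as targets of the DBL-1 pathway.

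The libraries held 58889275 to 82735807 reads on genes, and levels are given as CPM, reads scaled to a common normalized library size. A floor of 3 reads corresponded to 0.0350 to 0.0503 CPM. These limits cover counting error only. The *sma-3* transcript was lower in the *sma-3* libraries, at 12.6, 13.3 and 14.2 CPM, against 26.5, 21.4 and 22.4 CPM in wild-type (log2 fold change −0.76, SE 0.09, adjusted p = 0.00101). The *sma-9* transcript was higher in the libraries labelled *sma-9*, at 173, 213 and 219 CPM, against 87.6, 89.4 and 119 CPM in wild-type (log2 fold change 1.03, SE 0.13, adjusted p = 0.00202). A total over the whole gene does not resolve the part deleted by an allele such as *ok1628*, so this value does not check the label, and every direction given for *sma-9* is that of the libraries labelled *sma-9*. The 4 epidermal marker genes *elt-1*, *elt-3*, *nhr-25* and *lin-26* summed to 192 to 201 CPM in *sma-3*, 186 to 198 CPM in *sma-9* and 162 to 232 CPM in wild-type, and none of them was called in any comparison by limma (1 at an unadjusted p under 0.05, higher in *sma-3* than in *sma-9*, and 0 by limma voom). The libraries come from whole worms, so fewer epidermal cells and less RNA per cell cannot be told apart.

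The *col* genes took a large share of the worm's messenger RNA. Their summed level was 23276, 29694 and 29617 CPM in *sma-3*, 21051, 13739 and 13654 CPM in *sma-9*, and 20569, 19553 and 10462 CPM in wild-type. Every *sma-3* library was thus above every other library, while the *sma-9* and wild-type libraries overlapped. Expressed as a share of all CPM this was 2.43% to 3.01% in *sma-3*, 1.43% to 2.06% in *sma-9* and 1.05% to 1.91% in wild-type. In each library the 10 most abundant members supplied 56.4% to 70.0% of the member total.

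All 159 members had a read in at least 1 library, but 106 passed the filter of at least 1 CPM in at least 3 libraries and are called measurable here. The mean level of the other 53 ranged from 0.00345 CPM for *col-92* to 0.680 CPM for *col-83*, and 29 of them lay under 0.1 CPM. Together those 53 summed to 8.52 to 11.1 CPM in *sma-3*, 5.75 to 7.38 CPM in *sma-9* and 6.80 to 7.42 CPM in wild-type. Of the measurable members, 15 would not have passed without the *sma-3* libraries (*col-19*, *col-20*, *col-63*, *col-66*, *col-88*, *col-106*, *col-119*, *col-120*, *col-122*, *col-139*, *col-140*, *col-175*, *col-178*, *col-181* and *col-187*). None depended on the *sma-9* libraries in this way, and *col-66* and *col-94* would not have passed without wild-type. Of the 15, *col-66* needed both *sma-3* and wild-type, and its *sma-3* libraries lay within the wild-type range. The tests of the other 14 and of *col-94* are not independent of the filter, since these genes entered through the group in which they are high. A total of 90 members passed without any 1 genotype, and counts without the 15 or *col-94* are given beside the main ones.

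**Figure D1:**
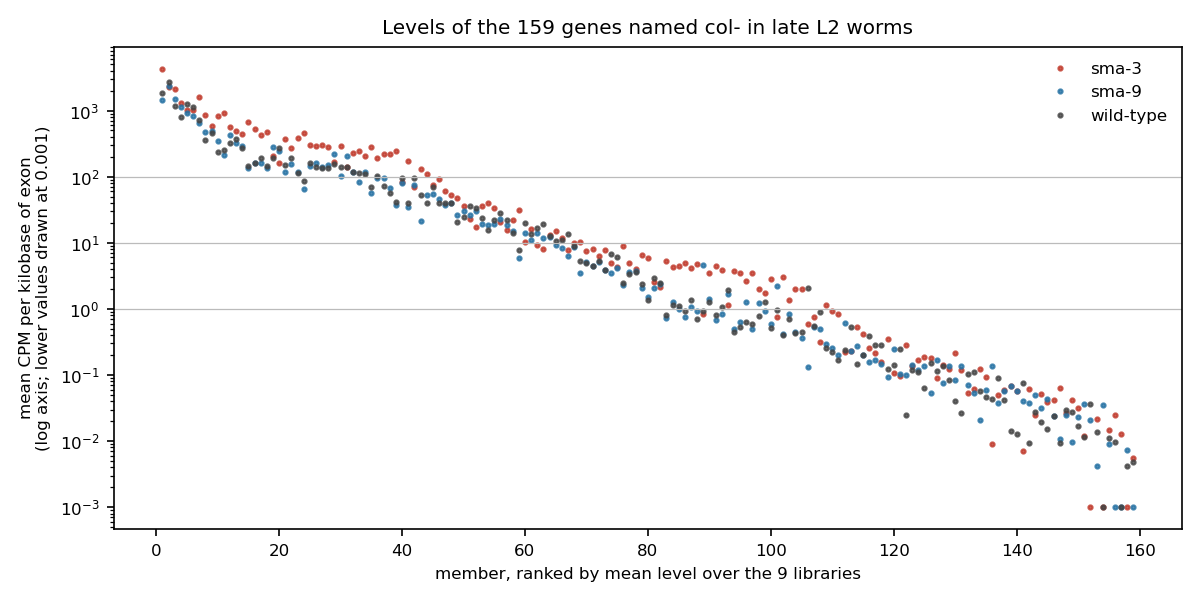
Mean level of each of the 159 members in CPM per kilobase of exon (log axis) for *sma-3*, *sma-9* and wild-type, with members ranked by their mean over the 9 libraries and grey lines at 1, 10 and 100. The *sma-3* points lie above the others for many of the 39 members over 100 and for many of the 36 members between 1 and 10.

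Levels of different genes were compared per kilobase of exon. By the mean over all libraries, 39 members had at least 100 CPM per kilobase, 27 had 10 to under 100, 36 had 1 to under 10 and 57 had less than 1. The highest was *col-125*, with 4266 CPM per kilobase in *sma-3*, 1464 in *sma-9* and 1822 in wild-type. It was followed by *col-17* (2260, 2357 and 2666 CPM per kilobase in the same order of genotypes), *col-166* (2149, 1486 and 1162), *col-167* (1281, 1114 and 813), *col-90* (1023, 933 and 1245) and *col-41* (1014, 833 and 1130). The order therefore depended on genotype, since *col-125* led in *sma-3* and *col-17* led in *sma-9* and wild-type. The order of members was not tested. Before scaling by exon length, *col-125* had 2283, 2120 and 740 CPM in the 3 wild-type libraries. *col-17* had 2694, 4026 and 2031 CPM there, above *col-125* in each library.

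The main change was in *sma-3*, and it was mostly upward. Of the 106 measurable members, 47 were higher in *sma-3* than in wild-type (adjusted p up to 0.05), 5 were lower and 54 were not called. Over all 13105 genes tested, 9.36% were called higher and 12.2% lower. The 3 *sma-3* libraries all lay above the 3 wild-type libraries for 64 members (18% of all tested genes) and all below for 7 (23.5% of all tested genes), and the libraries overlapped for 35. Among the 15 members that passed only through *sma-3*, 13 were called higher. Among the 90 members that passed without any 1 genotype, 34 were called higher and 4 lower. The median log2 fold change of those 90 was 0.81, against −0.013 over all tested genes. The 47 called members had log2 fold changes of 0.46 to 2.88.

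**Figure D2:**
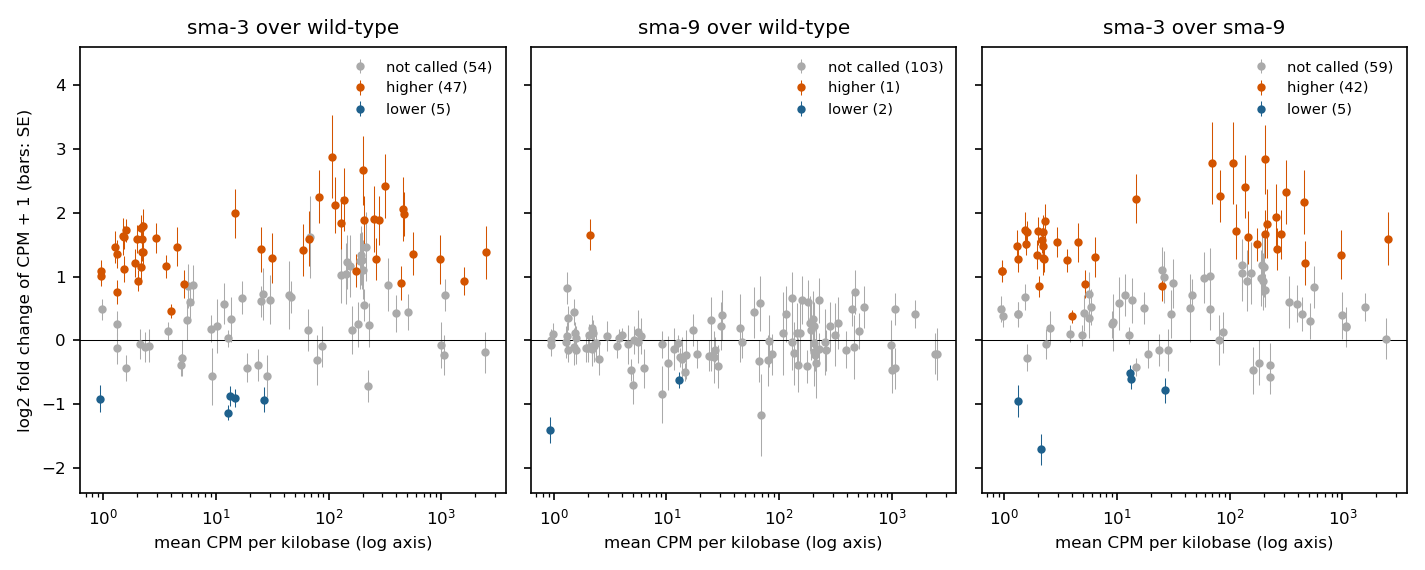
Log2 fold change of CPM + 1 (bars, SE) against mean CPM per kilobase (log axis) for the 106 measurable members in *sma-3* over wild-type, *sma-9* over wild-type and *sma-3* over *sma-9*. In the first panel 47 members are called higher and 5 lower, in the second 1 and 2, and in the third 42 and 5.

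On the log2(CPM + 1) scale the largest changes were among abundant members, whereas by the ratio of mean CPM 5 scarce members that passed only through *sma-3*, led by *col-20* (8.53) and *col-19* (7.56), exceeded *col-133* (5.83). *col-133* had 165, 255 and 281 CPM in *sma-3*, against 72.6, 38.2 and 9.32 CPM in wild-type (log2 fold change 2.88, SE 0.64, adjusted p = 0.0137). *col-162* had 308, 484 and 489 CPM in *sma-3*, against 127, 87.0 and 24.5 CPM in wild-type (log2 fold change 2.67, SE 0.54, adjusted p = 0.00901). *col-161* had 462, 685 and 723 CPM in *sma-3*, against 220, 144 and 45.8 CPM in wild-type (log2 fold change 2.42, SE 0.50, adjusted p = 0.00961). For these genes every *sma-3* library was above every wild-type library, replicate 1 was the lowest of the *sma-3* libraries and replicate 3 the lowest of the wild-type libraries. *col-91* followed with 168 ± 35.1 CPM in *sma-3* and 39.0 ± 23.1 CPM in wild-type (SD, n = 3 each), then *col-156* with 279 ± 55.3 and 68.9 ± 39.4 CPM. *col-12*, a cuticle collagen whose transcript is known to peak late in each moulting cycle, had 196, 308 and 316 CPM in *sma-3*, against 113, 72.3 and 27.2 CPM in wild-type (log2 fold change 2.12, SE 0.44, adjusted p = 0.00975). Its neighbour *col-13*, long known as a near-identical duplicate, had 0.0365 CPM or less in every library. How reads shared by the 2 copies were assigned is not given in the sources used here, so their split is uncertain.

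By abundance, 18 of the 39 members with at least 100 CPM per kilobase were called higher in *sma-3* and none lower. Of the 27 members between 10 and 100, 6 were called higher and 4 lower. The classes used the mean over all libraries, *sma-3* included, so the counts by class are not independent of the *sma-3* levels. *col-12*, in the highest class, had 220 CPM per kilobase in *sma-3*, 66.3 in *sma-9* and 56.9 in wild-type. At an unadjusted p under 0.05 limma had 1 of the 39 lower, and limma voom called 0 lower. *col-125*, the most abundant, was among the weakest of these calls, with 3270, 4331 and 4442 CPM in *sma-3*, against 2283, 2120 and 740 CPM in wild-type (log2 fold change 1.38, SE 0.41, adjusted p = 0.0421). *col-166* had 1698, 2016 and 2126 CPM in *sma-3*, against 1443, 995 and 720 CPM in wild-type (log2 fold change 0.94, SE 0.22, adjusted p = 0.0166). The abundant members were not uniformly higher. *col-17* had 2317, 2880 and 2220 CPM in *sma-3*, within the wild-type range of 2031 to 4026 CPM, and its log2 difference of −0.19 had a 95% interval of −0.91 to 0.53. *col-90* (log2 difference −0.23, 95% interval −0.94 to 0.49) and *col-41*, studied before as a target of the DBL-1 pathway (−0.07, −0.90 to 0.75), were not called either. These intervals are wide, so sizeable changes in either direction could not be seen at this spread.

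Scarce members were also called higher, but many of them were tested only because of their *sma-3* levels. Of the 36 members between 1 and 10 CPM per kilobase, 12 had passed only through *sma-3* and 11 of these were called higher, and of the other 24, 10 were higher and none lower. Of the 4 measurable members under 1, 3 had passed only through *sma-3*, with 2 called higher, and the fourth was *col-94*. Of the 36, limma had 1 lower at an unadjusted p under 0.05, and limma voom called 0 lower. *col-19*, the adult collagen, had 1.83, 3.09 and 3.54 CPM in *sma-3*, against 0.314, 0.619 and 0.185 CPM in wild-type (log2 fold change 1.46, SE 0.25, adjusted p = 0.00460). *col-20* had 3.11, 4.08 and 4.12 CPM in *sma-3*, against 0.538, 0.574 and 0.214 CPM in wild-type (log2 fold change 1.73, SE 0.18, adjusted p = 0.000625). Both are among the 15 that entered through *sma-3*, so their calls are not independent of the filter. Both lay far below the abundant members in every genotype, and the pseudocount of 1 CPM makes their log2 fold changes smaller than the ratio of their levels. *col-81* had 3.83, 4.92 and 5.07 CPM in *sma-3*, against 1.38, 1.24 and 0.827 CPM in wild-type (log2 fold change 1.39, SE 0.15, adjusted p = 0.000625). The 15 members that passed only through *sma-3* summed to 38.2, 50.1 and 56.1 CPM in *sma-3*, 8.26, 6.18 and 15.0 CPM in *sma-9* and 10.4, 14.3 and 4.11 CPM in wild-type.

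A set of adult-expressed genes was also highest in the *sma-3* libraries by its sum. The 15 scarce members entered through *sma-3*, so a high *sma-3* level shared with them is not independent of the filter. The yolk protein genes *vit-1* to *vit-6*, which are known from the intestine of adult hermaphrodites, were looked up after the collagen values had been seen. They summed to 32.0, 46.4 and 52.4 CPM in *sma-3*, 5.62, 3.12 and 10.5 CPM in *sma-9* and 7.61, 11.9 and 3.72 CPM in wild-type. All 6 of 6 were called higher in *sma-3* than in wild-type, where 9.36% of all tested genes were. Of these, *vit-3*, *vit-4* and *vit-5* passed the filter only through *sma-3*, so their calls are not independent of the filter. *vit-2* alone had 8.76, 12.8 and 15.0 CPM in *sma-3*, 0.369, 0.227 and 2.87 CPM in *sma-9* and 1.27, 2.47 and 0.456 CPM in wild-type. Within each genotype the order of the libraries was the same for the yolk sum as for the 15 members, with *sma-9* replicate 3 and wild-type replicate 2 the highest of their groups. Those libraries were also the highest of their groups for *vit-2*, *vit-5* and *vit-6*, but not for every yolk gene. *vit-1* was highest in *sma-9* replicate 1 (3.88, 1.43 and 1.71 CPM) and *vit-4* in *sma-9* replicate 2. *vit-3* and *vit-4* were highest in wild-type replicate 1. Among the 23 members under 10 CPM per kilobase that were called higher in *sma-3*, 13 of them from the 15, *sma-9* replicate 3 was the highest *sma-9* library for 16 (30.4% of all tested genes) and wild-type replicate 2 the highest wild-type library for 14 (29.0% of all tested genes). Among the 24 called members of at least 10 CPM per kilobase, those numbers were 0 and 3. Both libraries were singled out by the sum of the 15, so the counts among the 23 are not independent of that sum. The part of adult-expressed RNA in the levels of the scarce members was not tested.

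**Figure D3:**
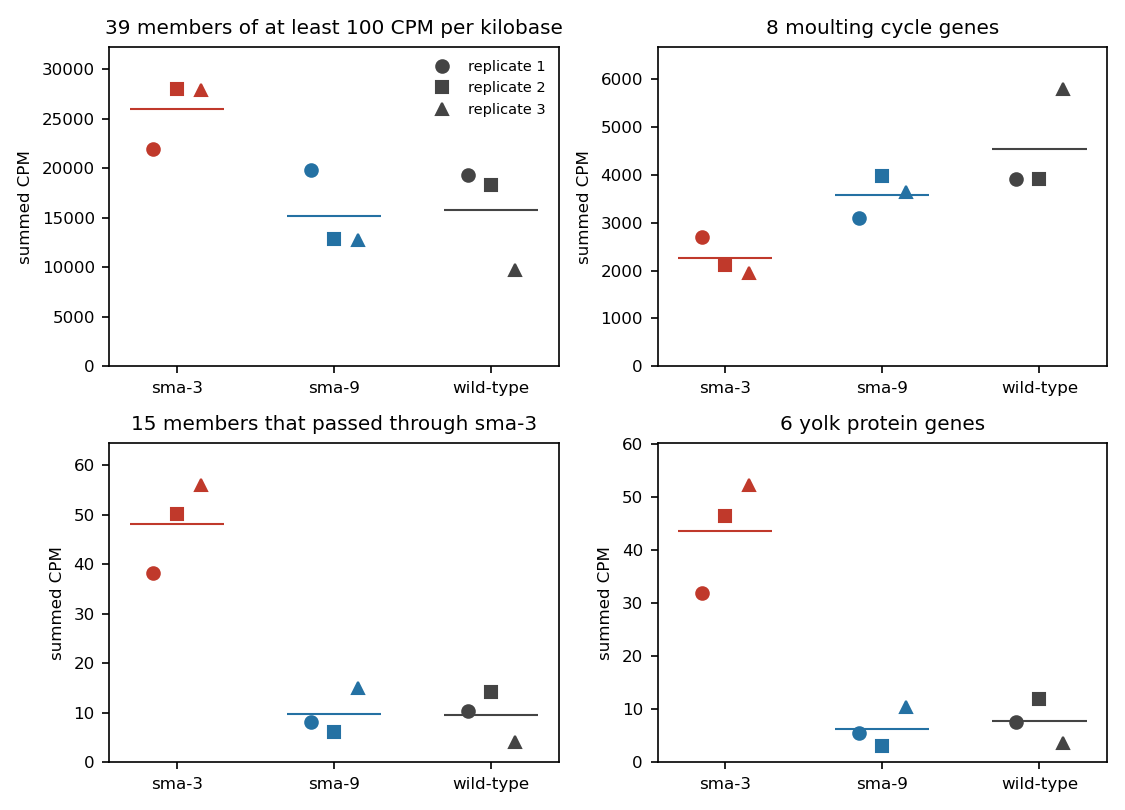
Summed CPM in each library (points, marked by replicate; lines, genotype means) of the 39 members of at least 100 CPM per kilobase, 8 moulting cycle genes, the 15 members that passed the filter through *sma-3*, and the 6 yolk protein genes. In the upper pair wild-type replicate 3 is lowest for the members (9688 CPM) and highest for the moulting genes (5793 CPM), and the lower pair has the same order of libraries within each genotype.

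The summed level of genes of the moulting cycle moved against that of the abundant members. A list of 8 such genes, which includes the clock gene *lin-42*, the nuclear receptor gene *nhr-23*, the apical matrix genes *noah-1* and *fbn-1* and the moulting protease gene *nas-37*, summed to 2707, 2113 and 1941 CPM in *sma-3*, 3092, 3975 and 3645 CPM in *sma-9* and 3907, 3916 and 5793 CPM in wild-type. Of these, 5 were called lower in *sma-3* than in wild-type and 0 higher, where 12.2% and 9.36% of all tested genes were. In *sma-9*, 2 were called lower than in wild-type, where 3.85% of all tested genes were. The 39 most abundant members summed to 21917, 28013 and 27924 CPM in *sma-3*, 19818, 12878 and 12770 CPM in *sma-9* and 19264, 18248 and 9688 CPM in wild-type. The library with the highest moulting sum, wild-type replicate 3, had the lowest collagen sum, and *sma-3* replicates 2 and 3, with the lowest moulting sums, had the highest collagen sums. In wild-type replicate 3, *noah-1* (1867 CPM) and *mlt-11* (1593 CPM) supplied much of the moulting sum. *mlt-10* was instead lowest in wild-type replicate 3 (395, 579 and 393 CPM) and highest in *sma-9* replicate 1 (518, 259 and 284 CPM). The genes *lin-42* and *nas-37* were also highest in *sma-9* replicate 1 among the *sma-9* libraries. The part of position in the moulting cycle in the *sma-3* difference was not tested.

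Only 5 members were lower in *sma-3*. *col-47* had 6.67, 5.55 and 4.96 CPM in *sma-3*, against 13.3, 12.3 and 15.8 CPM in wild-type (log2 fold change −1.13, SE 0.12, adjusted p = 0.000625). *col-46* had 32.7, 22.4 and 21.3 CPM in *sma-3*, against 48.0, 42.3 and 49.7 CPM in wild-type (log2 fold change −0.87, SE 0.16, adjusted p = 0.00524). These genes lie beside each other on chromosome I with overlapping spans (741878 to 747213 for *col-46* and 745888 to 748288 for *col-47* in WBcel235), and reads in the overlap could have been assigned to either. *col-128* had 29.5, 21.0 and 19.3 CPM in *sma-3*, against 42.2, 35.4 and 58.6 CPM in wild-type (log2 fold change −0.93, SE 0.20, adjusted p = 0.0116). *col-153* (chromosome V, 10949811 to 10951821), which the study took up as a target of both factors, had 16.5, 13.6 and 11.2 CPM in *sma-3*, against 22.9, 30.0 and 27.0 CPM in wild-type (log2 fold change −0.91, SE 0.14, adjusted p = 0.00285). *col-94* (chromosome III, 10986808 to 10987873), taken up for the same reason, had 0.490, 0.503 and 0.814 CPM in *sma-3*, against 3.16, 1.99 and 1.18 CPM in wild-type (log2 fold change −0.91, SE 0.21, adjusted p = 0.0143). *col-94* was tested only because of its wild-type levels, so its lower call is not independent of the filter. The *sma-3* libraries were below the wild-type libraries without overlap for each of the 5, and none of them was among the 39 abundant members. *col-153* overlaps the annotated antisense gene *anr-43* and *col-94* overlaps *dhc-4*, and whether reads were counted by strand is not given in the sources used here.

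**Figure D4:**
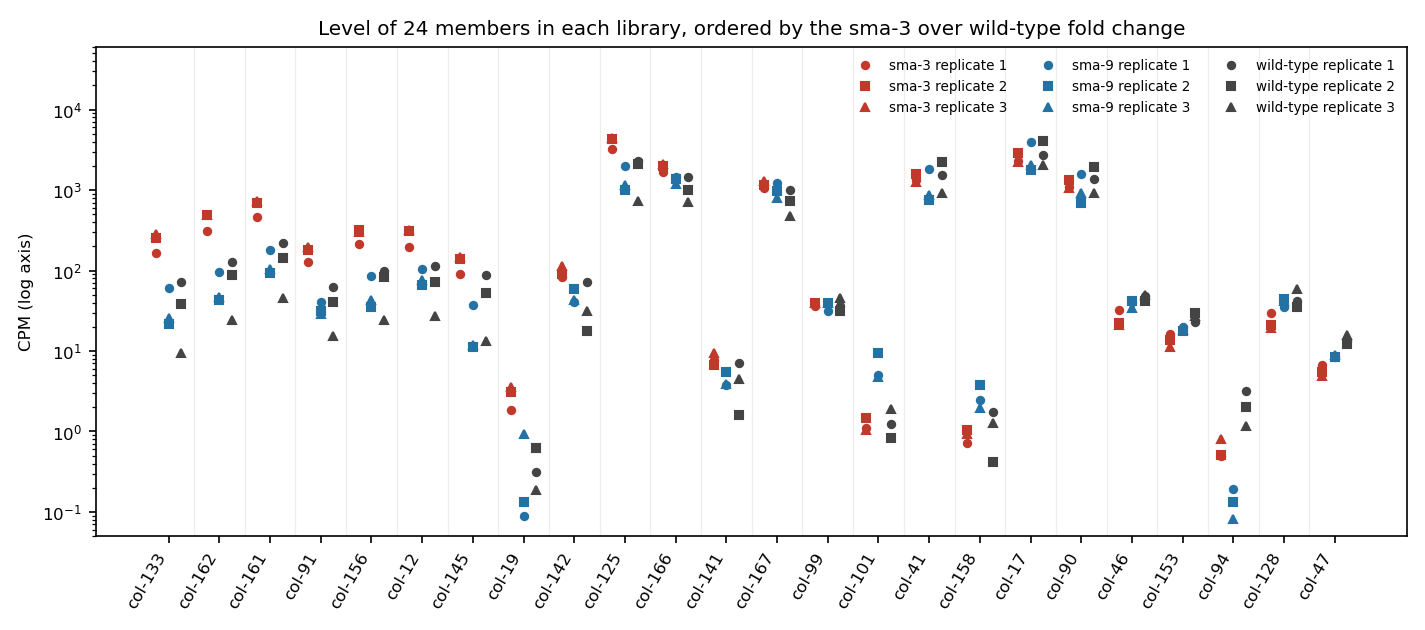
CPM (log axis) of 24 members in each of the 9 libraries, coloured by genotype, marked by replicate and ordered by the *sma-3* over wild-type log2 fold change, 2.88 for *col-133* at the left and −1.13 for *col-47* at the right. *col-101* stands out by its high *sma-9* libraries and *col-94* by its low ones.

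The number of *sma-3* calls depended on single libraries. Without *sma-3* replicate 2, 29 members were called higher (4.55% of all tested genes), and without *sma-3* replicate 3, 27 were (4.16% of all tested genes). With all libraries these were 47 members and 9.36% of all tested genes, so the share fell over all genes too. The number in each library's file label was at most 7 in wild-type replicates 1 and 2 and in *sma-9* replicate 1 and higher in all others. All *sma-3* libraries were thus in the higher class, and 74 members were called higher with this class as a term (12.9% of all tested genes). A total of 27 members, of which 13 had passed the filter only through *sma-3* and which included *col-12*, *col-91*, *col-161* and *col-162*, were called higher under each alternative model, scaling, pseudocount or left-out library that tested them, and *col-46*, *col-47* and *col-153* were called lower under each. *col-133*, *col-156*, *col-166* and *col-128* were no longer called without *sma-3* replicate 2 or replicate 3, and *col-94* without replicate 2. *col-125* lost its call without any 1 of the *sma-3* libraries or without *sma-9* replicate 2 or 3, which enter through the shared spread. Without wild-type replicate 3, 8 members were lower (14.2% of all tested genes), with *col-71*, *col-79* and *col-110* added to the 5.

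Few members changed in the libraries labelled *sma-9*. Compared with wild-type, 1 of the 106 was called higher and 2 lower, where 3.02% of all tested genes were called higher and 3.85% lower. All *sma-9* libraries were above all wild-type libraries for 2 members (10.2% of all tested genes) and below for 4 (12.0% of all tested genes). *col-101* (chromosome IV, 325435 to 327020) had 5.11, 9.53 and 4.75 CPM in *sma-9*, against 1.26, 0.825 and 1.88 CPM in wild-type (log2 fold change 1.65, SE 0.24, adjusted p = 0.00397). *col-94* had 0.192, 0.134 and 0.0816 CPM in *sma-9*, against 3.16, 1.99 and 1.18 CPM in wild-type (log2 fold change −1.40, SE 0.21, adjusted p = 0.00398). *col-47* had 8.34, 8.44 and 8.83 CPM in *sma-9*, against 13.3, 12.3 and 15.8 CPM in wild-type (log2 fold change −0.62, SE 0.12, adjusted p = 0.0147). *col-94* entered through wild-type, so its call here too is not independent of the filter, and among the 90 members that passed without any 1 genotype 1 was higher and 1 lower. *col-101* was not called in *sma-3*, where it had 1.09, 1.48 and 1.03 CPM.

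Other named members were not called in *sma-9*, often with wide intervals. *col-153* had 19.9, 17.5 and 18.4 CPM in *sma-9*, all below the wild-type libraries, with a log2 difference of −0.49 (95% interval −0.81 to −0.17, adjusted p = 0.0755). *col-133* differed by 0.11 on the log2 scale with a 95% interval of −1.34 to 1.56, and *col-125* by −0.21 with an interval of −1.15 to 0.72. Over the 106 members the median SE was 0.30, against 0.12 over all tested genes, so that a collagen needed a larger difference than most genes to be called. Without wild-type replicate 1, 5 members were called higher (*col-39*, *col-101*, *col-146*, *col-158* and *col-160*), where 2.79% of all tested genes were. Without wild-type replicate 3, 6 were called lower (*col-47*, *col-71*, *col-79*, *col-94*, *col-110* and *col-145*), where 6.55% of all tested genes were. *col-47* lost its call without *sma-9* replicate 2 or 3.

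By direction in the 2 mutants, both set against the same wild-type libraries, 47 members were higher in *sma-3* and not called in *sma-9*, 2 (*col-47* and *col-94*, which entered through wild-type) were lower in both, 3 (*col-46*, *col-128* and *col-153*) were lower in *sma-3* and not called in *sma-9*, 1 (*col-101*) was higher in *sma-9* and not called in *sma-3*, and 53 were called in neither. None was called in opposite directions.

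The mutants were also compared directly. In *sma-3* against *sma-9*, 42 members were higher and 5 lower, where 8.56% and 9.1% of all tested genes were, and 59 were not called. Of the 15 members that passed only through *sma-3*, 12 were called higher, and of the 90 that passed without any 1 genotype, 30 were higher and 5 lower. *col-162* had 308, 484 and 489 CPM in *sma-3*, against 94.9, 42.6 and 46.5 CPM in *sma-9* (log2 fold change 2.84, SE 0.54, adjusted p = 0.00815), and *col-133* had 165, 255 and 281 CPM in *sma-3*, against 61.2, 21.5 and 25.5 CPM in *sma-9* (log2 fold change 2.78, SE 0.64, adjusted p = 0.0189). *col-145* had 91.4, 140 and 149 CPM in *sma-3*, against 37.4, 11.1 and 11.9 CPM in *sma-9* (log2 fold change 2.78, SE 0.64, adjusted p = 0.0186). *col-145* differed from wild-type in neither mutant by the test, and its wild-type libraries ranged from 13.3 to 88.5 CPM. Of the 47 members higher in *sma-3* than in wild-type, 37 were also higher than in *sma-9*. The 5 lower members were *col-46*, *col-47*, *col-128*, *col-101* and *col-158*. *col-101* had a log2 difference of −1.71 (SE 0.24, adjusted p = 0.00211), and *col-158* had 0.727, 1.04 and 0.936 CPM in *sma-3*, against 2.49, 3.76 and 1.97 CPM in *sma-9* (log2 fold change −0.95, SE 0.25, adjusted p = 0.0296). *col-94*, low in both mutants, differed by 0.49 between them (95% interval 0.03 to 0.96, adjusted p = 0.134). The count of higher members was 23 without *sma-3* replicate 2 or 3 (3.68% and 3.62% of all tested genes) and 25 without *sma-9* replicate 2 or 3 (5.30% and 4.77%). It was 75 with the class of the library number as a term (15.3% of all tested genes). The count of lower members was 1 without *sma-3* replicate 2 or 3 or *sma-9* replicate 2 (3.72%, 4.05% and 5.91% of all tested genes). It was 3 without *sma-9* replicate 1 or 3 (7.86% and 5.38%). *col-133*, *col-145* and *col-47* lost their calls without any 1 of *sma-3* replicates 2 and 3 and *sma-9* replicates 2 and 3, whereas *col-162* and *col-101* kept theirs without each library in turn.

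Collagen levels varied more between replicates than those of other genes. The median SD over the 106 members on the log2(CPM + 1) scale was 0.23 in *sma-3*, 0.38 in *sma-9* and 0.58 in wild-type, against 0.083, 0.14 and 0.16 over all tested genes. The ratio of the highest to the lowest replicate had a median of 1.41 in *sma-3*, 1.99 in *sma-9* and 2.87 in wild-type. By the SD of log2(CPM + 1) the widest wild-type spreads belonged to *col-133* (9.32 to 72.6 CPM), *col-162* (24.5 to 127 CPM) and *col-145* (13.3 to 88.5 CPM). By the ratio of highest to lowest replicate, the scarce *col-63* (7.40) and *col-178* (6.88) stood between *col-133* (7.79) and *col-145* (6.64). *col-99*, which encodes a transmembrane collagen and not a cuticle collagen, was level throughout, with 36.3, 39.2 and 39.9 CPM in *sma-3*, 31.1, 39.0 and 39.6 CPM in *sma-9* and 36.7, 31.8 and 45.4 CPM in wild-type.

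The members did not all vary in the same way between the wild-type replicates. Wild-type replicate 3 was the lowest of its group for 84 of the 106 members (41.8% of all tested genes), replicate 2 for 18 (30.0%) and replicate 1 for 4 (28.2%). The 18 that were lowest in replicate 2 included *col-42*, *col-98*, *col-101*, *col-103*, *col-141*, *col-142*, *col-147*, *col-149*, *col-158*, *col-160* and *col-176*. *col-142* had 82.8, 90.4 and 112 CPM in *sma-3*, 40.5, 59.8 and 43.5 CPM in *sma-9* and 72.8, 17.7 and 31.8 CPM in wild-type, and was called higher in *sma-3* (log2 fold change 1.42, SE 0.41, adjusted p = 0.0350). Its neighbour *col-141* had 7.64, 6.69 and 9.35 CPM in *sma-3*, 3.75, 5.49 and 3.91 CPM in *sma-9* and 7.13, 1.61 and 4.48 CPM in wild-type, and was not called (adjusted p = 0.112). *col-142* lost its call without any 1 of the *sma-3* libraries, *sma-9* replicate 3 or wild-type replicate 2 or 3, and also without the filter, with the replicate number or the number class as a term, or with the 2 genotypes fitted alone. Both have been studied as targets of the DBL-1 pathway.

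This grouping used wild-type levels alone, and the groups differed in the mutant libraries. Replicate 2 was the highest *sma-9* library for 16 of the 18 members but for 4 of the 84, for which replicate 1 was the highest in 63. Among all tested genes lowest in the same wild-type replicate, the shares with the highest *sma-9* value in replicate 2 were 46.1% and 13.7%, and 63.5% of those lowest in wild-type replicate 3 had it in replicate 1, a share near that of the 84. In *sma-3* against *sma-9*, the 84 had a median log2 difference of 1.06 with 39 called higher and 0 lower, and the 18 had a median of −0.14 with 1 higher and 5 lower. Over all tested genes grouped in the same way the medians were 0.0024 and −0.034, with 11.4% called higher and 8.58% lower among those lowest in wild-type replicate 3 and 7.99% and 8.88% among those lowest in replicate 2. The genes of a group are not independent of one another, and no test was made of the difference between the groups.

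**Figure D5:**
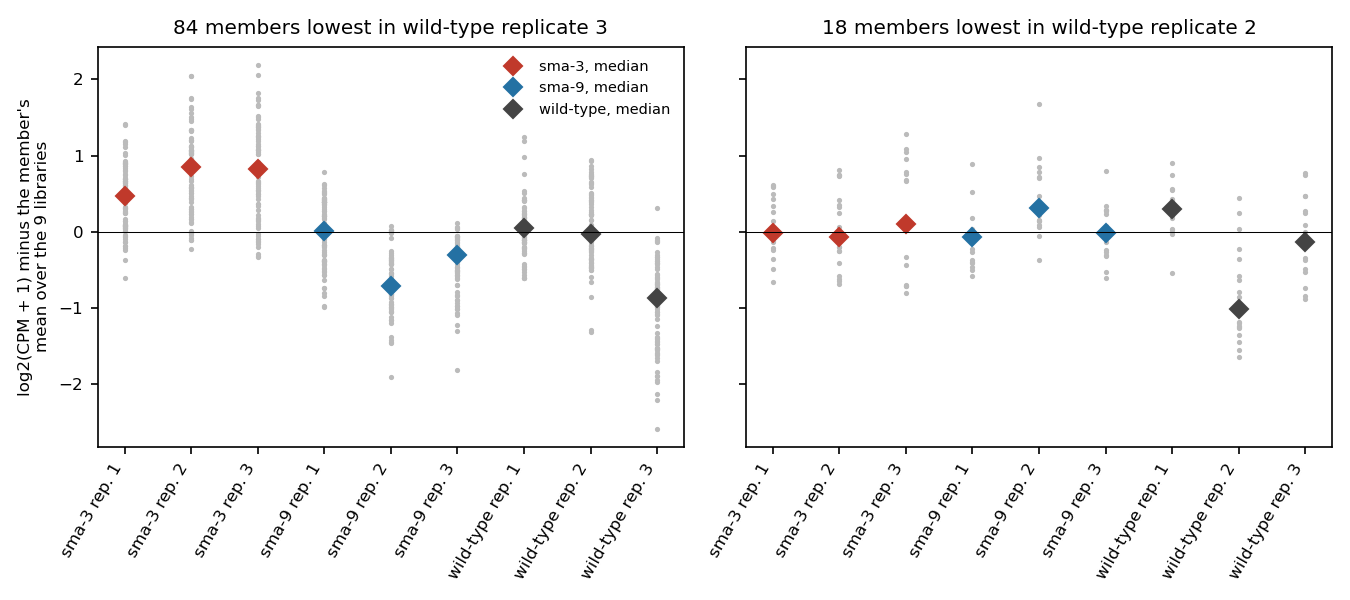
Log2(CPM + 1) of each member (grey points) minus its own mean over the 9 libraries, with the median per library (diamonds), for the 84 members lowest in wild-type replicate 3 and the 18 lowest in wild-type replicate 2. The first group is high in all *sma-3* libraries and low in *sma-9* replicate 2, whereas the second group is highest in *sma-9* replicate 2 and wild-type replicate 1 by its medians.

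Members were spread over all 6 chromosomes, with 42 on IV, 31 on V, 28 on X, 24 on II, 22 on I and 12 on III. Without the 15 members that entered through *sma-3*, 12 of 22 were called higher in *sma-3* on V (13.5% of all tested genes there), 8 of 25 on IV (9.78%), 6 of 15 on X (10.6%), 5 of 13 on II (8.43%), 2 of 10 on I (5.7%) and 1 of 6 on III (7.02%). Neighbouring members no more than 10 kb apart formed 21 groups that held 50 members. The largest contained *col-167*, *col-168*, *col-169*, *col-170* and *col-171* on X (6323488 to 6335221), of which 4 were measurable, with *sma-3* over wild-type log2 differences from 0.44 to 1.09, and 2 (*col-168* and *col-170*) were called higher. In the group of *col-141*, *col-142* and *col-143* on V, *col-142* and *col-143* were higher in *sma-3*. Neighbours also differed. *col-17* was abundant and not called, whereas *col-20* in the same group on II was scarce and higher in *sma-3*. *col-20* entered through *sma-3*, so its call is not independent of the filter. *col-149* had a log2 difference of −0.72 (adjusted p = 0.0789) beside *col-150* with 2.00 (adjusted p = 0.00732). The exon length of the protein-coding members ranged from 465 to 2960 bases with a median of 1020, and 42 of the 106 measurable members overlapped the span of another annotated gene, so that reads could be shared.

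Other cuticle collagens, named for body shape, were also examined. Of 20 such genes, 19 were tested, 7 were lower in *sma-3* than in wild-type and 2 were higher, where 12.2% and 9.36% of all tested genes were, and 10 were not called. The median log2 difference was −0.68. No test was made of a difference from the *col* genes. The 7 were *dpy-2*, *dpy-3*, *dpy-7*, *dpy-8*, *dpy-9*, *dpy-10* and *dpy-17*, of which the first 6 encode collagens of the cuticle furrows that are known to be transcribed early in each moulting cycle. *dpy-7* had 239, 175 and 158 CPM in *sma-3*, 353, 383 and 400 CPM in *sma-9* and 451, 412 and 499 CPM in wild-type (*sma-3* over wild-type log2 fold change −1.26, SE 0.14, adjusted p = 0.000838). The 2 higher genes were *bli-1* and *bli-6*, whose mutants blister the adult cuticle, with 5.19 ± 1.17 and 5.60 ± 1.38 CPM in *sma-3* and 1.45 ± 0.621 and 0.955 ± 0.596 CPM in wild-type (SD, n = 3 each), scarce like *col-19*. None of the 19 was called in *sma-9*, where limma had 2 lower and 0 higher at an unadjusted p under 0.05 and limma voom called 0. The basement membrane and other collagens *emb-9*, *let-2*, *cle-1* and *mec-5* were called in no comparison, with 1 lower in *sma-3* than in wild-type at an unadjusted p under 0.05 by limma and 0 called by limma voom.

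Genes that process collagens changed in both directions. Of 8, 2 were higher and 4 lower in *sma-3* than in wild-type, where 9.36% and 12.2% of all tested genes were. The lower ones were the prolyl hydroxylase subunit genes *dpy-18* and *phy-2*, the disulfide isomerase gene *pdi-2* and the thioredoxin-like gene *dpy-11*, with log2 fold changes of −0.74 to −0.46. Higher were the crosslinking peroxidase gene *mlt-7* (log2 fold change 1.37, SE 0.18, adjusted p = 0.00132) and the procollagen protease gene *bli-4* (0.34, SE 0.09, adjusted p = 0.0263). None of the 8 was called in *sma-9*, where limma had 1 lower at an unadjusted p under 0.05 and limma voom called 0.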

How the data were processed

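Per the labels and methods, the authors sequenced polyA RNA as paired ends, mapped it with STAR 2.5.1a to WS245 and normalized gene counts with edgeR. They deposited log2 CPM values with a prior averaging 2 reads; the lowest, −5.15, is a gene without reads. Strand setting, multi-mapped reads and gene filter are not given in the sources used here. The prior was removed, and whole reads were recovered for 100% of values (tolerance 0.05). Genes reaching 1 CPM in 3 or more libraries were analysed as log2(CPM + 1) with limma 3.58.1 (R 4.3.3; eBayes with trend) over all 9 libraries with genotype coefficients, with Benjamini-Hochberg adjustment of two-sided p-values over all 13105 genes per comparison. All adjusted p-values are from limma. Limma voom on recovered reads was an alternative. A second header row with genotype labels was left out. Symbols and WBcel235 positions came from Ensembl, and 3 pseudogenes were named through RefSeq.

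Members, lists and alternatives were chosen with earlier results of these data known, and the yolk list after the values were seen. Named members were those the study or earlier work singles out, the 6 most abundant, those with the largest called fold changes per comparison and direction (6, or 3 between mutants) and the 3 with the widest wild-type spread; others were named after their values were seen. The scripts were tested on simulated data: at a small replicate spread nearly all changed genes were called, and at a larger spread, nearer that of collagens, many 2-fold changes were missed. Tables and plots were made with Python 3.11.15, pandas 2.3.3 and matplotlib 3.10.9. Protein and promoter sequences were not analysed here.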

Additional observations from a re-analysis of the deposited data

How the results depend on the processing

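The 3 counts of members called higher and the 3 called lower were recomputed with other pseudocounts, filters, normalizations and models, with a 2-fold threshold and with each library left out. Settings that moved a count by more than 1.5 times follow. With a mean of at least 5 CPM required, which leaves fewer members to test, 26 members were higher in *sma-3* than in wild-type, 0 were higher and 1 lower in *sma-9*, and 23 were higher and 3 lower in *sma-3* than in *sma-9*. With equal totals 1 was higher and 1 lower in *sma-9*, and the median log2 difference of all tested genes was 0.071 in *sma-3* and 0.11 in *sma-9* over wild-type, against −0.013 and 0.0045. With the class of the library number as a term 74 were higher in *sma-3*, 5 higher in *sma-9* (*col-104*, *col-115*, *col-167* and *col-168* beside *col-101*) and 75 higher in *sma-3* than in *sma-9*. Of all tested genes, 12.9%, 4.74% and 15.3% were. The higher class held every *sma-3* library but only replicate 3 of wild-type and replicates 2 and 3 of *sma-9*. Class and genotype are thus partly confounded, and what this adds to the counts was not tested. With a 2-fold threshold 1 was lower in *sma-3*, 1 lower in *sma-9* and 1 lower in *sma-3* than in *sma-9*. With 1 library left out, 27 to 52 members were higher and 3 to 8 lower in *sma-3*, 1 to 5 higher and 1 to 6 lower in *sma-9*, and 23 to 58 higher and 1 to 6 lower in *sma-3* than in *sma-9*. The share of all tested genes called higher moved too, from 4.16% to 10.9%, 1.63% to 5.42% and 3.62% to 11.5% in the same order of comparisons. The number of measurable members was 106.

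Neither the labels nor the methods say whether libraries with the same replicate number were grown together, and the correlation of same-numbered libraries' deviations from their group means ranged from −0.63 to 0.40. With the number as a replicate block, 42 members were higher and 5 lower in *sma-3*, 1 higher and 2 lower in *sma-9*, and 35 higher and 3 lower in *sma-3* than in *sma-9*. Not every library correlated best with its own number.

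Some uncalled differences changed sign. In *sma-3* over wild-type, the log2 difference of *col-41* was 0.022 with equal totals, 0.0038 after quantile normalization and 0.65 with the number class, the only one of these to be called (adjusted p = 0.0276). With the number class *col-99* had −0.21, *col-17* 0.39 and *col-90* 0.37. In *sma-9* over wild-type, *col-19* had 0.0014 with a pseudocount of 5 and 0.018 with equal totals, under which *col-99* had 0.069 and *col-91* 0.10. With the number class *col-125* had 0.19, *col-17* 0.078, *col-162* 0.35, *col-91* 0.33 and *col-156* 0.29. In *sma-3* over *sma-9*, *col-17* had −0.0021 with equal totals and −0.064 after quantile normalization, and *col-99* had −0.043 with the number class. With 1 library left out, the differences whose sign turned ranged as follows in *sma-3* over wild-type: *col-158* −0.40 to 0.083, *col-41* −0.40 to 0.23, *col-99* −0.084 to 0.16, *col-17* −0.42 to 0.070, *col-90* −0.50 to 0.025 and *col-101* −0.22 to 0.11. In *sma-9* over wild-type they were *col-19* −0.29 to 0.13, *col-99* −0.16 to 0.087, *col-133* −0.69 to 0.73, *col-161* −0.55 to 0.57, *col-141* −0.32 to 0.50, *col-17* −0.56 to 0.048, *col-162* −0.86 to 0.30, *col-91* −0.56 to 0.41, *col-156* −0.82 to 0.17, *col-125* −0.74 to 0.075, *col-142* −0.029 to 0.96, *col-12* −0.15 to 0.86 and *col-128* −0.30 to 0.051. In *sma-3* over *sma-9* they were *col-17* −0.21 to 0.37, *col-99* −0.032 to 0.14 and *col-90* −0.054 to 0.54. Depth was not the limit for abundant members, whose replicates differed by far more than counting error, whereas members near the floor of 3 reads cannot be compared.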
